A study of Mus musculus with 18 samples.

Results

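The bone morphogenetic protein (BMP) ligand gene Bmp6 was followed together with 9 genes of its receptor and SMAD branch, namely the receptor genes Bmpr1b and Bambi, the SMAD genes Smad6, Smad7 and Smad9, and the 4 inhibitor of DNA binding genes Id1, Id2, Id3 and Id4. These 10 genes were chosen by symbol from the 55291 gene symbols of the deposited tables, and all 10 were listed in every table. The question was whether the Id genes, the usual targets of BMP signaling, moved with the ligand in hippocampal astrocytes of mice given kainic acid, a model of temporal lobe epilepsy. Translating ribosome affinity purification (TRAP) was used, in which ribosomes tagged with EGFP are pulled down with an anti-GFP antibody, so that an immunoprecipitated (IP) library holds mRNA bound to tagged ribosomes and the input library holds RNA of the whole homogenate.

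All animals were wild-type C57BL/6J male mice, 6 weeks old at the start, and all received AAV_DJ-GfaABC1D-EGFP-Rpl10a into CA3 of the right hippocampus, controls included. The GfaABC1D promoter drives the tag in astrocytes, so the IP reports on cells that took up the virus and used that promoter. AAV control mice received no second injection, and their RNA was taken 2 weeks after the virus. KA mice received kainic acid, a glutamate receptor agonist, in the right dentate gyrus 2 weeks after the virus, and their RNA was taken 14 days later. PBS mice received phosphate-buffered saline in place of KA. KA mice were therefore further from the virus injection than AAV control mice, and time since the virus and KA cannot be told apart in that comparison. Since each sample is a pool, p-values measure the spread between pooled samples. Each of the 3 conditions had 3 samples, each sample pooled 3 to 4 hippocampi, and each gave an IP and an input library from the same homogenate, which makes 18 libraries. AAV control and KA samples 1 and 2 were sequenced in run 1, samples 3 of both groups in run 2 and all PBS samples in run 3, so that run and group cannot be told apart in any comparison with PBS.

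BMP6 is a secreted ligand that brings together type I and type II receptor kinases. The type I receptor then phosphorylates SMAD1, SMAD5 and SMAD9, which enter the nucleus with SMAD4 and switch on the Id genes and, as feedback, Smad6 and Smad7. Id proteins bind basic helix-loop-helix factors and keep them off DNA, and BMP signaling with high Id levels is known from astrocytes and adult neural stem cells of the hippocampus. BAMBI is a pseudoreceptor without a kinase domain, and BMPR1B is a type I receptor for BMP ligands.

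The libraries held between 7991681 and 16032180 counts. The astrocyte markers, 8 genes, summed to between 2872.9 and 6178.8 FPKM in the 9 IP libraries and to between 369 and 1018 FPKM in the 9 input libraries, and no marker of any list was at 0 in all libraries of a group. Other cell types moved with the groups as well. The 6 microglia markers summed to 642.8 to 1161.8 FPKM in KA input and to 71.6 to 110.3 FPKM in AAV control input. The 5 oligodendrocyte markers summed to 1176.6 to 2264.6 FPKM in KA IP and to 199.1 to 876 FPKM in AAV control IP, and the 7 neuron markers to 227.9 to 308.6 FPKM against 100.9 to 149.3 FPKM. The 4 choroid plexus markers reached 2980.1 and 2114.3 FPKM in AAV control input 1 and 2 but 16 FPKM in input 3, with 2486.4 to 4478.8 FPKM in KA input and 18.5 to 289.9 FPKM in PBS input; in IP libraries they stayed between 3.22 and 66 FPKM. In bulk libraries of this kind, fewer cells of a type and less RNA per cell cannot be told apart.

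Promoter windows, 250 bases before to 50 after each start site, were at hand in the RefSeq table (build GRCm38.p6) for 7 of the 10 genes, in 9 windows since Bmpr1b has 3. Bambi, Smad7 and Id1 were not matched. SMAD1 and SMAD5 are known to bind the GC-rich letters GGCGCC, and SMAD3 and SMAD4 the palindrome GTCTAGAC. GGCGCC reads the same on both strands and was in the windows of Smad9, Id2 and Id4, against 11.87% of all 32851 windows. GTCTAGAC, also the same on both strands, was in the window of Smad6 and in 0.21% of all windows. GGCGCC followed after 5 bases of any kind by GTCT, searched on both strands, was in 0.073% of all windows and in no window of these genes. The stretches that hold the letters are shown as a description. Id2, Id4 and Smad9 did not rise in the IP against AAV control, and neither did Id3, Smad6 and Bmpr1b, whose windows lack GGCGCC. Bambi and Smad7, which rose with Bmp6, had no window. Of the genes with a window only Bmp6 rose, and its window lacks GGCGCC. Whether the letters separate genes that rose from genes that did not can therefore not be judged. Capitals mark the motif and the stretches run 5′ to 3′ on the strand of the gene.
Id2, minus strand, chr12:25096306-25096335: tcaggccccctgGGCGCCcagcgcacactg
Id4, plus strand, chr13:48260956-48260985: ctcgggttgcccGGCGCCccgccctcgcca
Smad9, plus strand, chr3:54755519-54755548: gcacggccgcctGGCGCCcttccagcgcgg
Smad6, minus strand, chr9:64022045-64022074: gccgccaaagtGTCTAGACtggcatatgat
The motif of Id4 lies 148 to 143 bases before the start, that of Id2 231 to 226 bases before it and that of Smad9 51 to 46 bases before it, while the motif of Smad6 crosses the start site. A match of letters is a description of the window and does not show that a factor is bound there.

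In the GENCODE vM21 annotation (mm10), Bmp6 (chr13:38345107-38500302, plus strand) overlaps Txndc5 and the antisense gene 4930579J19Rik on the other strand. Id4 (chr13:48261228-48266026, plus strand) overlaps the noncoding genes A330033J07Rik and Gm49291 on the other strand. Overlap was taken between whole gene spans, not exons. The other members overlapped no annotated gene, among them Id1 (chr2:152736251-152737410), Id3 (chr4:136143497-136145755), Id2 (chr12:25093799-25097140), Smad6 (chr9:63953076-64022059), Smad9 (chr3:54755582-54801257) and Bmpr1b (chr3:141837136-142169425). Whether counting used the strand is not given in the sources used here. Txndc5 differed by -0.34 on the log2 scale between KA and AAV control IP (SE 0.157, adjusted p = 0.175), and the 3 noncoding genes had at most 12 counts in any library.

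Bmp6 rose with KA in the IP, and the Id genes did not move as a group with it. In IP libraries, KA against AAV control, Bmp6, Bambi and Smad7 rose, Id4 and Bmpr1b fell, and Id1, Id2 and Id3 did not pass. In input libraries of the same samples, Id2 and Id3 rose together with Bmp6. Against PBS IP, Bmp6, Smad7 and Id3 rose and Id4 and Bmpr1b fell, with 18.2% of all genes higher and 18.9% lower. Id1 and Id2 did not pass there, and the Id3 call was lost in 4 of 6 fits with 1 library left out. The test was edgeR's quasi-likelihood test over all genes whose FPKM exceeded 1 in each of the compared libraries, with Benjamini-Hochberg adjusted p under 0.05 called passed. For KA against AAV control IP it could be applied to 8 of the 10 genes, of which 3 rose and 2 fell. Of all 9729 genes tested there, 10.4% rose and 9.74% fell. Members below the FPKM filter were tested on counts instead, over all genes kept by edgeR's filterByExpr, and are named as such.

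**Figure D1:**
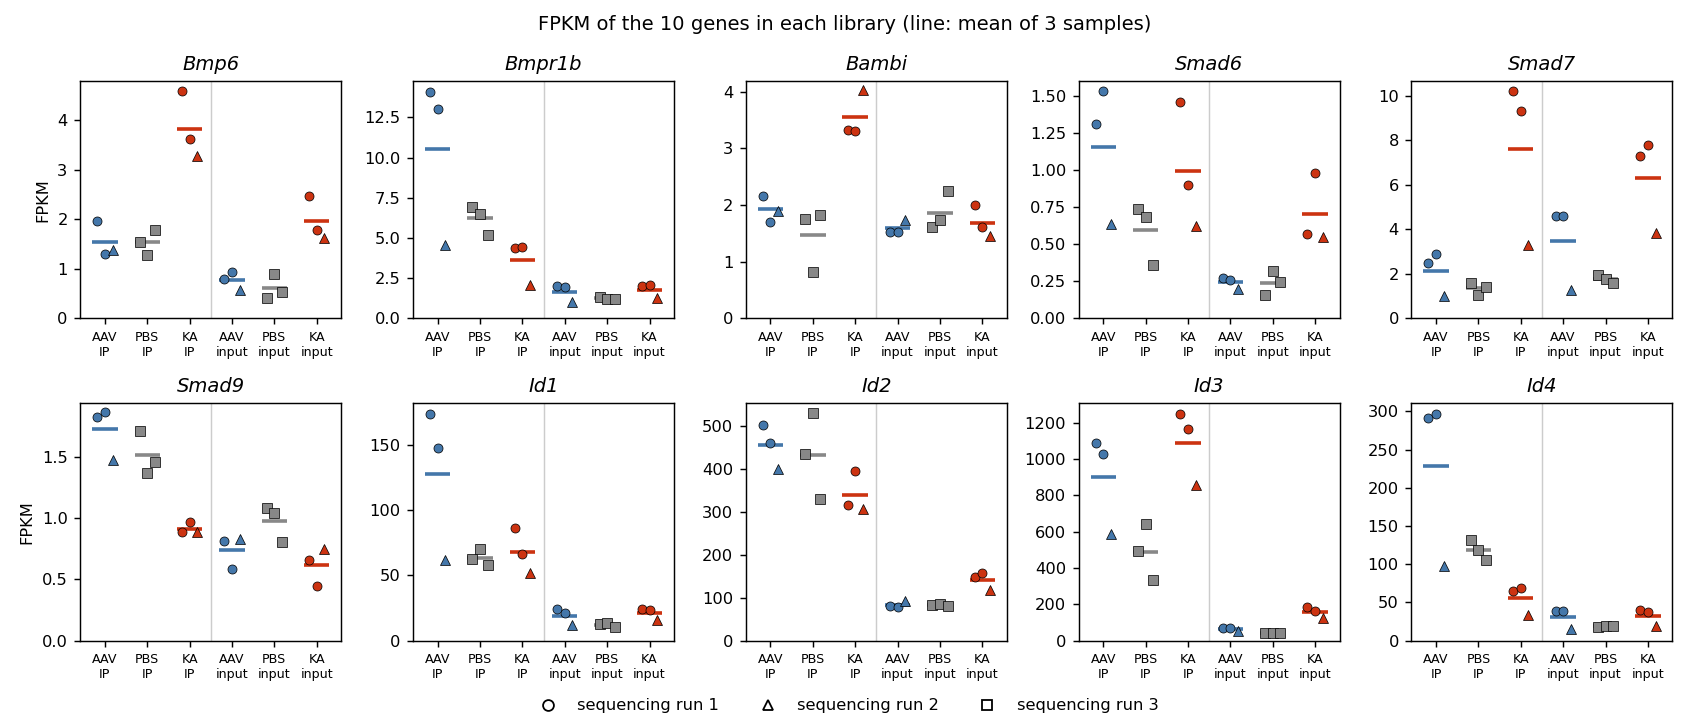
FPKM of each of the 10 genes (vertical axes, linear, starting at 0) in each of the 18 libraries, with 1 point a library, marker shape by sequencing run and a line at the mean of 3 samples. Bmp6 sits between 3.28 and 4.58 FPKM in KA IP, above all 6 control IP libraries, while Id4 sits between 34 and 68.6 FPKM there, below all 6.

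Bmp6 was a gene of low level, with 16 to 199 counts a library. Its FPKM was 4.58, 3.62 and 3.28 in KA IP samples 1, 2 and 3. It was 1.96, 1.31 and 1.38 in AAV control IP and 1.55, 1.28 and 1.78 in PBS IP. Every KA IP library was above every control IP library, with group means of 3.83 ± 0.678 (SD, n = 3) in KA, 1.55 ± 0.357 in AAV control and 1.54 ± 0.252 in PBS. The log2 fold change was 1.35 (SE 0.221, adjusted p = 0.00594), or 2.55-fold, against AAV control and 1.32 (SE 0.204, adjusted p = 0.000989), or 2.5-fold, against PBS. Against PBS, 18.2% of 9847 genes tested rose. Leaving out any library of the 6 kept both calls, with log2 fold changes between 1.22 and 1.51 against AAV control and between 1.23 and 1.39 against PBS.

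In the input Bmp6 was lower but moved alike. Its FPKM was 2.47, 1.78 and 1.63 in KA input, 0.803, 0.94 and 0.571 in AAV control input and 0.408, 0.905 and 0.529 in PBS input. The KA input libraries were above all 6 control inputs and overlapped AAV control and PBS IP, which in turn did not separate from each other. Bmp6 was below the FPKM filter there. With filterByExpr it rose by 1.34 (SE 0.263, adjusted p = 0.0172) against AAV control, where 5.78% of the genes kept rose, and by 1.62 (SE 0.295, adjusted p = 0.00162) against PBS, where 16.4% rose. The first of these calls was lost without KA input 1 (1.17, adjusted p = 0.101), KA input 2 (1.43, adjusted p = 0.052) or AAV control input 1 (1.33, adjusted p = 0.0674). The exact two-sided permutation test on log2(FPKM + 1) gave p = 0.1 for both comparisons, the smallest that 3 against 3 samples can give.

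The 2 receptor genes went in opposite directions in the IP. Bmpr1b, the type I receptor, was at 4.35, 4.41 and 2.05 FPKM in KA IP, at 14.1, 13 and 4.54 FPKM in AAV control IP and at 6.95, 6.51 and 5.19 FPKM in PBS IP. All KA IP libraries were below all control IP libraries. It fell by 1.48 on the log2 scale against AAV control (SE 0.402, adjusted p = 0.0369) and by 0.82 against PBS (SE 0.263, adjusted p = 0.0312), where 18.9% of all genes tested fell. The call against AAV control held without AAV control IP 3, at -1.82, and was lost without any of the other 5 libraries, with log2 fold changes between -1.63 and -1.23 and adjusted p between 0.0868 and 0.109. It was also lost with limma-voom (-1.4, adjusted p = 0.0524). The call against PBS was lost without KA IP 3 (-0.57, adjusted p = 0.074), PBS IP 1 (-0.77, adjusted p = 0.0741) or PBS IP 2 (-0.71, adjusted p = 0.0897), and with filterByExpr it was -0.68 (adjusted p = 0.0535). In the input Bmpr1b was at 1.05 to 2.09 FPKM in all groups, and its log2 fold change was 0.12 (adjusted p = 0.868) against AAV control and 0.46 (adjusted p = 0.108) against PBS.

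Bambi, the pseudoreceptor, was at 3.33, 3.31 and 4.03 FPKM in KA IP, at 2.17, 1.71 and 1.89 FPKM in AAV control IP and at 1.75, 0.828 and 1.82 FPKM in PBS IP. All 3 KA libraries were above all 6 control libraries. It rose by 0.95 (SE 0.214, adjusted p = 0.0194) against AAV control and, with filterByExpr, by 1.48 (SE 0.264, adjusted p = 0.000965) against PBS, where 19.6% of the genes kept rose. The first call was lost without KA IP 2 (1.03, adjusted p = 0.0522), KA IP 3 (0.78, adjusted p = 0.0535), AAV control IP 1 (1, adjusted p = 0.0584) or AAV control IP 2 (0.84, adjusted p = 0.0749). The second held without each library in turn. Bambi input libraries overlapped between the groups, at 1.45 to 2 FPKM in KA, 1.53 to 1.74 FPKM in AAV control and 1.61 to 2.25 FPKM in PBS, with log2 fold changes of 0.06 and -0.15.

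Of the inhibitory SMAD genes, Smad7 rose with KA in the IP and Smad6 did not pass there. Smad7, which blocks activated receptors, was at 10.2, 9.3 and 3.31 FPKM in KA IP, at 2.48, 2.89 and 1.02 FPKM in AAV control IP and at 1.6, 1.05 and 1.43 FPKM in PBS IP. The lowest KA library, sample 3, was still above every control library. The log2 fold change was 1.89 (SE 0.444, adjusted p = 0.0223), or 3.71-fold, against AAV control and 2.45 (SE 0.34, adjusted p = 0.000548), or 5.47-fold, against PBS. The call against AAV control was lost without KA IP 1 (1.66, adjusted p = 0.0803), KA IP 2 (1.74, adjusted p = 0.0781) or AAV control IP 1 (1.99, adjusted p = 0.058), and the call against PBS was kept throughout.

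Smad7 in the input was at 7.31, 7.78 and 3.84 FPKM in KA, at 4.6, 4.59 and 1.3 FPKM in AAV control and at 1.96, 1.79 and 1.57 FPKM in PBS. Its low AAV control library, input 3, is the library whose choroid plexus markers sum to 16 FPKM, and the part of that cell type in the result was not tested. The rise of 1.8 against PBS passed (SE 0.232, adjusted p = 0.00036) and the value of 0.88 against AAV control did not (SE 0.419, adjusted p = 0.328). With the replicate number as a block the latter was 0.96 (SE 0.192, adjusted p = 0.0164), where 6.76% of all genes rose.

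Smad6, the other inhibitory SMAD gene, had 5 to 52 counts a library. It was at 1.46, 0.899 and 0.626 FPKM in KA IP, at 1.31, 1.53 and 0.633 FPKM in AAV control IP and at 0.74, 0.683 and 0.357 FPKM in PBS IP, and the groups overlapped. With filterByExpr the log2 fold change was -0.09 (SE 0.401, adjusted p = 0.898) and 0.83 (SE 0.444, adjusted p = 0.15). In the input, KA at 0.57, 0.982 and 0.551 FPKM was above AAV control at 0.198 to 0.273 FPKM and PBS at 0.155 to 0.319 FPKM. Smad6 rose there by 1.49 against PBS (SE 0.41, adjusted p = 0.0179), a call that was lost without KA input 2 (1.21, adjusted p = 0.101), PBS input 1 (1.3, adjusted p = 0.0696) or PBS input 3 (1.44, adjusted p = 0.075). Against AAV control its log2 fold change of 1.5 did not pass (SE 0.392, adjusted p = 0.0565).

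Smad9, whose protein is a BMP-activated SMAD, was at 0.887, 0.966 and 0.884 FPKM in KA IP, at 1.83, 1.87 and 1.48 FPKM in AAV control IP and at 1.71, 1.37 and 1.46 FPKM in PBS IP. The KA libraries were below all control libraries. With filterByExpr it fell by 0.79 against AAV control (SE 0.218, adjusted p = 0.0356), where 8.74% of the genes kept fell, and its log2 fold change against PBS was -0.58 (SE 0.263, adjusted p = 0.0948). The first call held without AAV control IP 3 (-0.84) and was lost without any of the other 5 libraries, at -0.83 to -0.73 with adjusted p between 0.0692 and 0.138, and without a filter (-0.78, adjusted p = 0.0936). In the input the values of Smad9 ran from 0.45 to 1.08 FPKM, and the log2 fold change was -0.28 (adjusted p = 0.708) against AAV control and -0.68 (adjusted p = 0.0993) against PBS.

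The Id genes stood far above the ligand in level, and in the IP they split. Id3, on the FPKM scale the highest of the 10 genes in every IP library, was at 1248.3, 1168 and 856.9 FPKM in KA IP, at 1091.3, 1027.6 and 589.2 FPKM in AAV control IP and at 494.4, 643 and 334 FPKM in PBS IP. KA and AAV control overlapped, while KA was above all PBS libraries. The log2 fold change of Id3 was 0.34 against AAV control (SE 0.258, adjusted p = 0.404), and it rose by 1.11 against PBS (SE 0.349, adjusted p = 0.0296). The latter call was lost without KA IP 1 (1.05, adjusted p = 0.0886), KA IP 2 (1.09, adjusted p = 0.0843), PBS IP 1 (1.07, adjusted p = 0.106) or PBS IP 3 (0.84, adjusted p = 0.0573).

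Id4 went the other way. It was at 64.9, 68.6 and 34 FPKM in KA IP, at 291.6, 296.8 and 97.8 FPKM in AAV control IP and at 131.8, 118.7 and 105.2 FPKM in PBS IP, so that each KA library was below each control library. It fell by 1.97 on the log2 scale, or 3.91-fold, against AAV control (SE 0.409, adjusted p = 0.0146) and by 1.12, or 2.17-fold, against PBS (SE 0.265, adjusted p = 0.00839). The first call slipped just above the threshold without KA IP 1 (-2.05, adjusted p = 0.0533), KA IP 3 (-1.74, adjusted p = 0.0502) or AAV control IP 2 (-1.77, adjusted p = 0.0505), and the second was kept without each library in turn, between -1.26 and -0.89.

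Id2 was at 315.8, 397 and 306.5 FPKM in KA IP, at 504.1, 462 and 401.7 FPKM in AAV control IP and at 435.6, 531.6 and 331.5 FPKM in PBS IP. Its KA libraries were below those of AAV control, by a log2 fold change of -0.37 that did not pass (SE 0.197, adjusted p = 0.232), and overlapped PBS (-0.38, SE 0.302, adjusted p = 0.348). Id1 was at 86.4, 66.2 and 51.5 FPKM in KA IP and at 173.8, 147.9 and 61.6 FPKM in AAV control IP, with a log2 fold change of -0.84 (SE 0.33, adjusted p = 0.115). Against PBS IP, at 62.6, 70 and 58.2 FPKM, it was 0.07 (SE 0.207, adjusted p = 0.804). For the difference of Id1 from AAV control, AAV control IP 3 decided the call: without that library it was -1.14 (adjusted p = 0.00317), and with the replicate block it was -0.76 (SE 0.195, adjusted p = 0.0257), where 17.2% of all genes fell.

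In the input Id3 and Id2 were higher in KA than in both controls, and Id1 and Id4 were higher than in PBS only. Id3 was at 185, 163.6 and 121.9 FPKM in KA, at 67.1, 68.9 and 50.4 FPKM in AAV control and at 42, 39.3 and 39.6 FPKM in PBS, with no overlap between the 3 groups. It rose by 1.34 (SE 0.168, adjusted p = 0.00497) against AAV control and by 1.94 (SE 0.137, adjusted p = 4.19e-06) against PBS, and both calls held without each library in turn. Id2 was at 148.4, 158.3 and 119.3 FPKM in KA, above 78.3 to 92.6 FPKM in AAV control and 81.9 to 84.5 FPKM in PBS, and rose by 0.74 (SE 0.164, adjusted p = 0.0451) and by 0.75 (SE 0.114, adjusted p = 0.00102). The call of Id2 against AAV control held without AAV control input 3 (0.88) and was lost without any of the other 5 libraries, at 0.68 to 0.81 with adjusted p between 0.0695 and 0.215, and with all 18 libraries in the fit (0.76, adjusted p = 0.0579).

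Of the 7 genes tested in the input against AAV control, Id3 and Id2 rose, while 3.54% of all 10809 genes rose. Against PBS 5 of the 7 tested rose, while 15.5% of all 10849 genes did: Id3, Id2, Smad7, Id1 and Id4. Id1 was at 24, 23.7 and 15.9 FPKM in KA, at 23.9, 20.9 and 12.3 FPKM in AAV control and at 10.7 to 13.2 FPKM in PBS, with log2 fold changes of 0.17 (adjusted p = 0.764) and 0.75 (SE 0.171, adjusted p = 0.00898). Id4 was at 40.4, 37.1 and 19.1 FPKM in KA, at 38.4, 39 and 15.1 FPKM in AAV control and at 18.1 to 19.4 FPKM in PBS, with log2 fold changes of 0.07 (adjusted p = 0.946) and 0.74 (SE 0.195, adjusted p = 0.0178). The call of Id4 against PBS was lost without KA input 1 (0.56), KA input 2 (0.64), PBS input 1 (0.75), PBS input 2 (0.75) or PBS input 3 (0.7), with adjusted p between 0.0578 and 0.0773, and KA input 3 lay within the PBS range. With all 18 libraries in the fit Id1 and Id4 did not pass (adjusted p = 0.137 and 0.24). Within run 1, Id1 was at 24 and 23.7 FPKM in KA input and at 23.9 and 20.9 FPKM in AAV control input. Id4 was at 40.4 and 37.1 FPKM against 38.4 and 39 FPKM there. All PBS libraries are from run 3, so run and KA cannot be told apart in the calls of Id1 and Id4. Summed astrocyte markers were 956.4 to 1018 FPKM in KA input against 369 to 378.4 FPKM in AAV control input, with 5 of the 8 higher by the same test, and the 6 microglia markers were all higher. Their part in the input results was not tested.

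**Figure D2:**
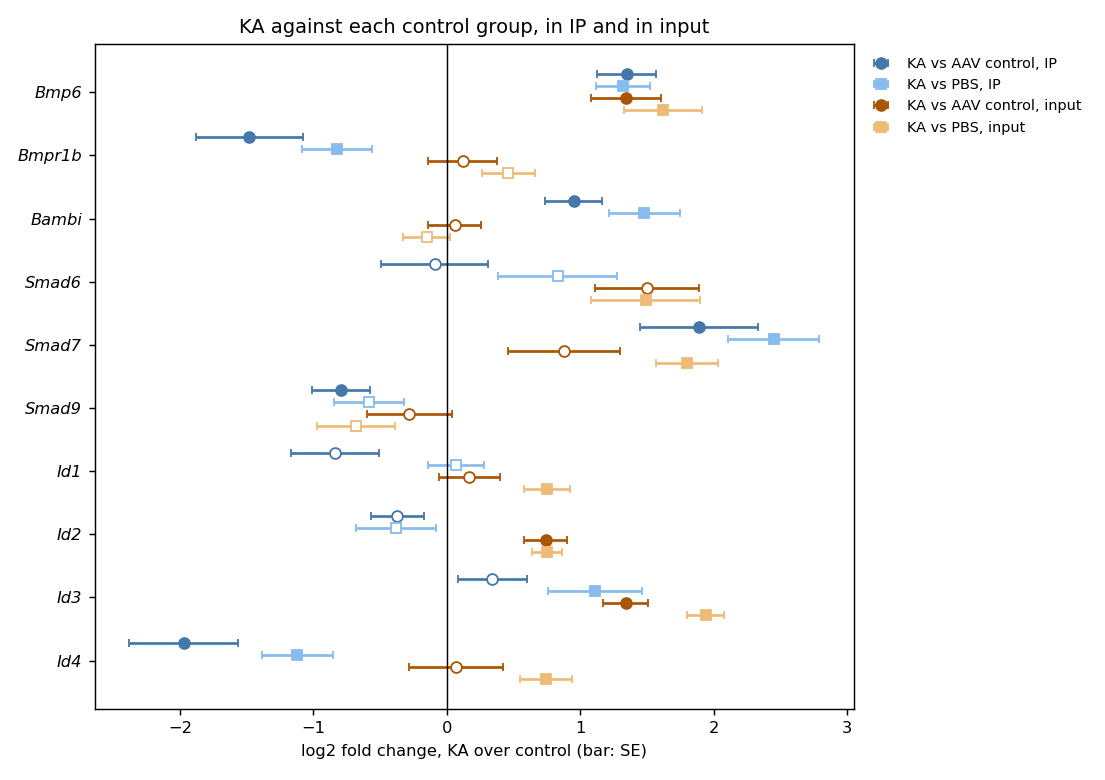
Log2 fold change of KA over each control group (horizontal axis, bars are SE) for the 10 genes, in IP and in input; filled markers passed at an adjusted p under 0.05 and open ones did not. Bmp6 lies between 1.32 and 1.62 in all 4 comparisons, while Id4 runs from -1.97 in IP to 0.74 in input.

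Sample 3 of both groups, from run 2, stood apart for most of these genes. In the IP, sample 3 was the lowest of its group in both KA and AAV control for 8 of the 10 genes, all but Bmp6 and Bambi, and in the input for 7 of the 10. The share of all genes with this pattern was not counted. Among other pathway genes, Bmpr1a and Junb had it in the IP, while Inhba and Smad3 did not. S100a16, Sdc4 and Rcn2 had it and Vim and A2m did not. These were picked for following Id3 or Bmp6 over the same libraries, so they cannot show how common it is. AAV control IP 3 had 97.8 FPKM of Id4 against 291.6 and 296.8 FPKM in samples 1 and 2, and KA IP 3 had 34 FPKM against 64.9 and 68.6 FPKM. Same-numbered KA and AAV control libraries deviated together, with correlations of 0.348 to 0.551 across genes, and the replicate number was also used as a block. KA and AAV control samples are separate pools, and samples 1 and 2 of both groups share run 1. KA input 2 correlated best with an AAV control input of another number. The block pairs samples by number, so its SE and p-values depend on that choice. With the block the 5 calls in the IP held and Id1 joined them, while 17.3% of all genes rose and 17.2% fell. Bmpr1b was at -1.42 (SE 0.152, adjusted p = 0.00129), Id4 at -1.88 (SE 0.185, adjusted p = 0.000973) and Smad7 at 1.87 (SE 0.155, adjusted p = 0.000586). Within run 1 alone, with 2 samples a group, Bmp6 was at 1.39, Smad7 at 1.93, Bambi at 0.84, Id4 at -2.07 and Bmpr1b at -1.56, and Id1 (-1.01, adjusted p = 0.000211) and Id2 (-0.37, adjusted p = 0.0425) also fell, while 22.3% of all genes fell there. Run 2 held 1 sample of each group: there Bmp6 was at 3.28 against 1.38 FPKM and Id3 at 856.9 against 589.2 FPKM.

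**Figure D3:**
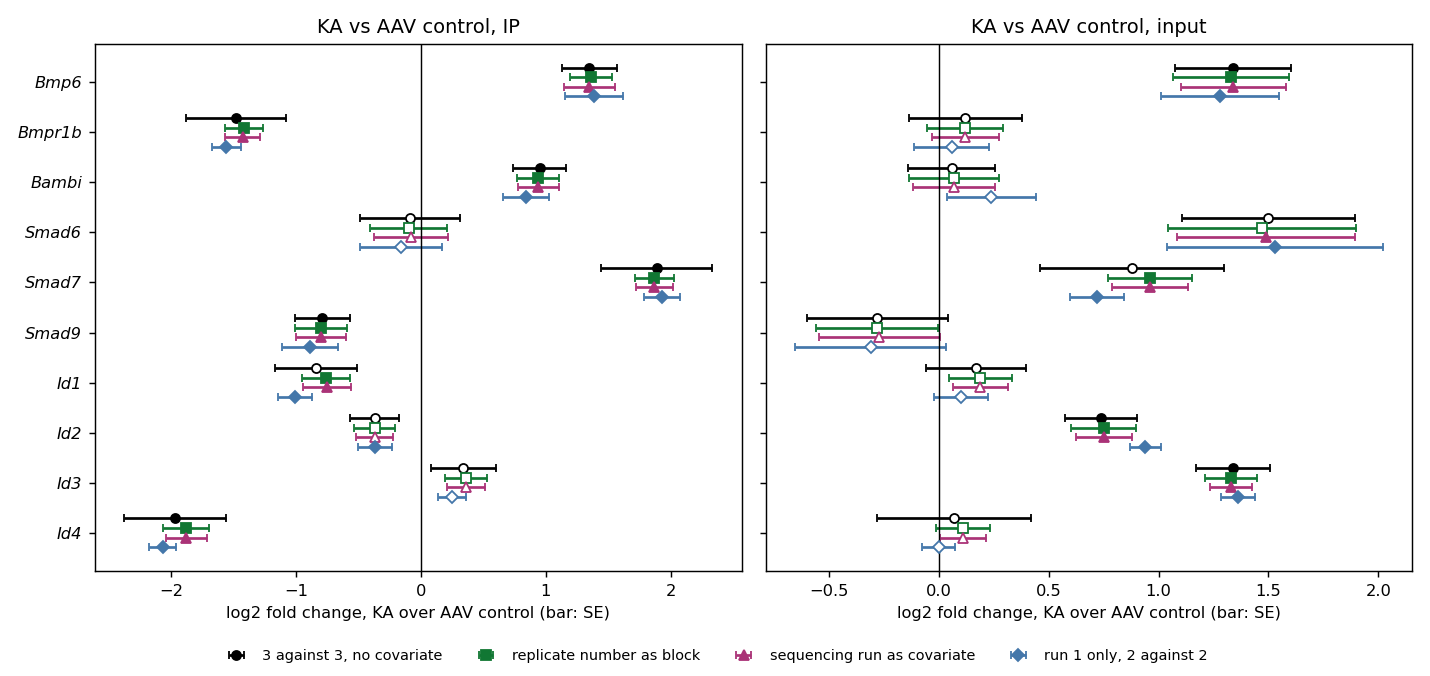
Log2 fold change of KA over AAV control (horizontal axes, bars are SE) in IP (left) and input (right), from all 3 samples a group, with the replicate number as a block, with the sequencing run as a covariate, and from run 1 alone; filled markers passed. The values of a gene lie close together, as with Bmp6 between 1.35 and 1.39 in IP, while the bars of Id4, Smad7 and Bmpr1b are shorter where number or run is in the fit.

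The PBS group addresses what the injection itself does. With edgeR 0 of 8 tested members passed in PBS against AAV control IP and 0 of 7 in input, with 0% of all genes in either direction (10667 and 10924 tested). At an unadjusted p under 0.05 there were 1 in IP, Id1, and 2 in input, Id1 and Id3, against 10.8% and 8.25% of all genes; DESeq2 and limma-voom also called 0. Bmp6 differed by 0.02 in IP (SE 0.265). These counts depended on sample 3 of AAV control. Without AAV control IP 3, 4 members were lower in PBS, with 5.35% of all genes: Id1 (-1.23, adjusted p = 0.0161), Id4 (-1.21, adjusted p = 0.03), Bmpr1b (-1.02, adjusted p = 0.0256) and Smad7 (-0.89, adjusted p = 0.0452). Without AAV control input 3, 5 members were lower, with 18.2% of all genes: Smad7 (-1.29), Id4 (-0.95), Id1 (-0.77), Id3 (-0.67) and Bmpr1b (-0.54), with adjusted p between 4.68e-06 and 0.0315. The choroid plexus markers summed to 2980.1 and 2114.3 FPKM in the AAV control inputs that remain and to 18.5 to 289.9 FPKM in PBS input, and their part in the difference was not tested. Whether run, time since the virus or the injection goes with this difference cannot be told apart.

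The IP to input ratio of each sample shows how far a transcript was enriched on tagged ribosomes. All 4 Id genes and Bmpr1b were enriched in AAV control, and their ratios were lower in KA. The 8 astrocyte markers also had lower enrichment in KA, with a median log2 difference of IP over input of 3.28 in AAV control, 3.01 in PBS and 2.11 in KA. The 5 oligodendrocyte markers went the other way, with medians of -0.31 in AAV control, -0.69 in PBS and 1.35 in KA. The FPKM ratio of Id3 was 16.3, 14.9 and 11.7 in AAV control, 11.8, 16.4 and 8.43 in PBS and 6.75, 7.14 and 7.03 in KA. That of Id4 was 7.59, 7.61 and 6.48 in AAV control, 7.28, 6.14 and 5.43 in PBS and 1.61, 1.85 and 1.78 in KA. The KA ratios of both were below every control ratio, and the share of all genes with such a separation was not counted. Id1 averaged 6.46 ± 1.26 (SD, n = 3) in AAV control, 5.17 ± 0.358 in PBS and 3.21 ± 0.408 in KA, and Id2 5.48 ± 0.997, 5.2 ± 1.12 and 2.4 ± 0.24. Bmpr1b averaged 6.03 ± 1.5, 4.87 ± 0.589 and 1.97 ± 0.308.

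For the ligand the ratios of the groups overlapped, and for Bambi they were higher in KA. Bmp6 averaged 2.09 ± 0.598 in AAV control, 2.86 ± 1.27 in PBS and 1.97 ± 0.0969 in KA. Bambi was at 1.42, 1.12 and 1.09 in AAV control, at 1.09, 0.476 and 0.81 in PBS and at 1.67, 2.05 and 2.78 in KA, and Smad7 averaged 0.651 ± 0.123, 0.772 ± 0.17 and 1.15 ± 0.27. Smad6 averaged 4.62 ± 1.35, 2.79 ± 1.75 and 1.54 ± 0.892, and Smad9 2.41 ± 0.718, 1.57 ± 0.244 and 1.56 ± 0.519.

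**Figure D4:**
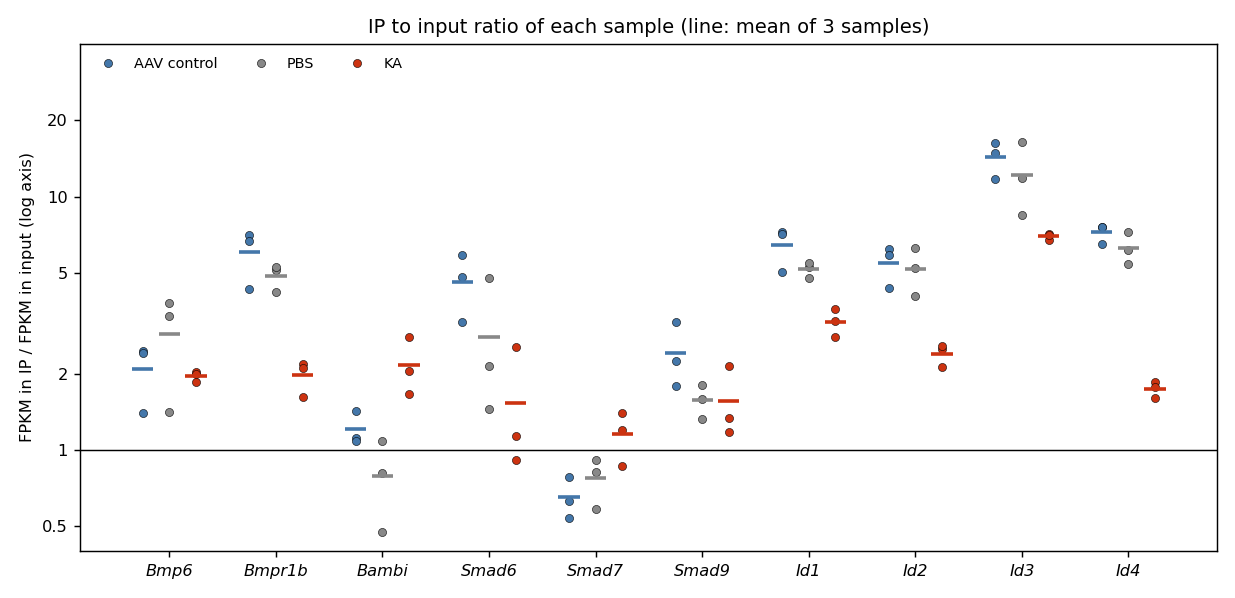
IP to input ratio of FPKM (vertical axis, log scale) for the 10 genes, with 1 point a sample and a line at the mean of 3 samples, by condition; the horizontal line marks a ratio of 1. The KA points of Id1, Id2, Id3, Id4 and Bmpr1b lie below all control points of the gene, and those of Bambi lie above. The share of all genes with such a separation was not counted.

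In the test of IP against input within AAV control, 5 of 7 tested members were higher in IP, with 19.4% of all genes: Id3 (4.00), Id4 (3.03), Id1 (2.89), Bmpr1b (2.8) and Id2 (2.58 on the log2 scale). With filterByExpr, where 18.5% of the genes kept were higher, Smad6 (2.36, adjusted p = 0.00308), Smad9 (1.35, adjusted p = 0.00503) and Bmp6 (1.17, adjusted p = 0.0162) were higher too. The call of Bmp6 was lost without AAV control IP 1 (1, adjusted p = 0.0653) or AAV control input 1 (1.21, adjusted p = 0.0568). In KA 7 of 8 were higher, with 19.1% of all genes: Id3 (3.01), Id1 (1.9), Id2 (1.48), Bambi (1.31), Bmpr1b (1.22), Bmp6 (1.18) and Id4 (1.01). The call of Id4 in KA was lost without KA IP 1 (0.92), KA IP 2 (0.86), KA input 2 (1.08) or KA input 3 (0.77), with adjusted p between 0.0528 and 0.0825. That fit does not pair the libraries of a homogenate. In the paired fit, with the replicate block, all 8 tested members passed in KA, with 52.8% of all genes. In PBS 5 of 6 were higher, with 28.6% of all genes: Id3 (3.79), Id4 (2.8), Id2 (2.55), Id1 (2.51) and Bmpr1b (2.44). With filterByExpr in PBS Bmp6 (1.35, adjusted p = 0.00236), Smad6 (1.41, adjusted p = 0.0257) and Smad9 (0.69, adjusted p = 0.0369) were higher, while 27.2% of the genes kept were. With filterByExpr in KA Smad9 was higher (0.85, adjusted p = 0.0411), with 17.9% of the genes kept, and Smad6 did not pass (0.8, adjusted p = 0.128). In 6 fits with 1 library left out, Smad6 lost its call 4 times in PBS. Smad9 lost it 4 times in PBS and 5 times in KA. With the replicate block, which joins the libraries of a homogenate, Smad7 was lower in IP in AAV control (-0.51, adjusted p = 0.0298, with 30.9% of all genes lower) and higher in KA (0.42, adjusted p = 0.0223, with 27.6% higher).

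The effect of KA in IP was then compared with that in input directly, as an interaction term. Against the AAV control baseline it was lower in IP for Id2, by 1.1 on the log2 scale (-1.1, SE 0.232, adjusted p = 0.00877), and for Id4 (-2.02, SE 0.598, adjusted p = 0.0451), while 5.99% of all genes were lower. In the same interaction 6 of the 8 astrocyte markers were lower, with a median of -1.32, which is below the value of Id2. All 3 tested microglia markers were lower too. Higher were 5 of 7 neuron, 2 of 3 granule cell and 2 of 5 oligodendrocyte markers, with 7.19% of all genes. The part of these markers in the values of the members was not tested. With the replicate block all 7 tested members passed: Id4 (-1.98), Bmpr1b (-1.53), Id2 (-1.11), Id3 (-0.95) and Id1 (-0.93) lower, with 17.3% of all genes, and Smad7 (0.94) and Bambi (0.89) higher, with 18.5%. Adjusted p of these 7 lay at or below 0.0168. Without the block Id3 was at -0.98 (adjusted p = 0.055), Bmpr1b at -1.58 (adjusted p = 0.0715) and Id1 at -0.99 (adjusted p = 0.171). The call of Id4 without the block was kept without AAV control IP 3 (-2.36, adjusted p = 0.00774) or KA input 3 (-2.26, adjusted p = 0.0382) and was lost without any of the other 10 libraries, at -2.24 to -1.71 with adjusted p between 0.0536 and 0.106. It was also lost with filterByExpr (-1.97, adjusted p = 0.0531) and limma-voom (-1.99, adjusted p = 0.054). The call of Id2 held without each of the 12 libraries in turn and was lost without the FPKM filter (-1, adjusted p = 0.087). Without AAV control IP 3, 6 of 7 members passed, 5 lower and Bambi higher, with 8.37% of all genes lower and 9.44% higher.

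Against the PBS baseline the log2 effect of KA in IP lay below that in input for Id4 (-1.86, SE 0.359, adjusted p = 0.00266), Bmpr1b (-1.29, SE 0.363, adjusted p = 0.0193) and Id2 (-1.14, SE 0.324, adjusted p = 0.0201), while 14.7% of all genes were lower and 5 of the 8 astrocyte markers were, with a median of -1.25. Higher there were 5 of 5 oligodendrocyte and 4 of 7 neuron markers, with 10.8% of all genes, while all 3 tested microglia markers were lower. The part of these markers was not tested. With the block Id1 joined (-0.68, adjusted p = 0.0103), where the background was 21%. With filterByExpr Bambi was higher (1.68, SE 0.317, adjusted p = 0.00209), with 10.3% of the genes kept. Without PBS IP 3, 5 of 6 members were lower, with 14.4% of all genes, Id3 among them at -1.12 (adjusted p = 0.0135). The Bmpr1b call was lost without KA input 2 (-1.18, adjusted p = 0.0507) and that of Id2 without KA input 2 (-1.08, adjusted p = 0.051) or PBS input 3 (-1.08, adjusted p = 0.054). The Id2 call was also lost with filterByExpr (-0.94, adjusted p = 0.0643) or without a filter (-0.9, adjusted p = 0.063), and that of Bmpr1b with all 18 libraries in the fit (-1.27, adjusted p = 0.0765). For Bmp6 itself the difference between IP and input was 0.08 (SE 0.343, adjusted p = 0.932) against AAV control and -0.12 (SE 0.345, adjusted p = 0.828) against PBS. These 2 baselines share the KA libraries.

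Around the 10 genes, 83 other genes of the pathway were listed by role, of which 35 passed the FPKM filter in IP, KA against AAV control, and 7 rose and 3 fell, against 10.4% and 9.74% of all genes. The median log2 fold change of the 35 was 0.03, against -0.02 over all genes tested. None of the 13 other BMP ligand genes had FPKM above 1 in all 6 libraries, which Bmp6 had. Of 4 ligands of the TGFβ, activin and GDF group, Inhba, the activin A subunit gene, rose by 2.61 (SE 0.242, adjusted p = 6e-04), from 1.55 ± 0.212 FPKM in AAV control (SD, n = 3) to 8.97 ± 1.88 FPKM in KA. Of 4 type I receptors, Acvr1b, an activin receptor gene (1.48, adjusted p = 0.0137), and Acvr1, whose product ALK2 is a type I receptor for BMP6 (0.92, adjusted p = 0.0119), rose and Bmpr1a, the BMP receptor closest to BMPR1B, fell by 0.89 (-0.89, adjusted p = 0.0313). Bmpr1a was at 9.6, 9.36 and 8.17 FPKM in KA IP, at 21.1, 21.3 and 10.7 FPKM in AAV control IP and at 15.7, 13.7 and 16 FPKM in PBS IP. The BMP type I receptor genes thus went both ways, with Bmpr1a and Bmpr1b lower and Acvr1 higher in KA.

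The type II receptor gene Acvr2b fell by 1.03 (-1.03, adjusted p = 0.0441), and Bmpr2 did not pass. Among 5 SMAD transducers Smad3, which carries TGFβ and activin signals, rose by 1 (adjusted p = 0.0179), and Smad1, Smad5, Smad2 and Smad4 did not pass. The secreted antagonist gene Fstl1 rose by 1.14 (adjusted p = 0.018) and Ski, a SMAD corepressor, by 0.77 (adjusted p = 0.046). Among other BMP targets, Junb rose by 2.46 (SE 0.155, adjusted p = 0.000171), from 8.11 ± 1.01 to 42.9 ± 6.23 FPKM, and Msx1, a homeobox gene and BMP target, fell by 1.94 (-1.94, SE 0.303, adjusted p = 0.0049), from 15.5 ± 6.03 to 3.85 ± 1.11 FPKM. The 3 E-protein genes that ID proteins bind, Tcf3, Tcf4 and Tcf12, did not pass, with a median of -0.67 and adjusted p between 0.0692 and 0.09.

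Against PBS IP, 9 of 33 tested pathway genes rose and 6 fell, against 18.2% and 18.9% of all genes. Inhba was not tested there, since PBS IP 2 was below the FPKM filter at 0.986. Its mean FPKM was 8.97 in KA IP and 1.41 in PBS IP. Acvr1b (1.34), Acvr1 (1.05), Smad3 (0.74), Fstl1 (1.39), Ski (0.65) and Junb (2.54) again rose, and Bmpr1a (-0.74) and Msx1 (-1.24) again fell, as did Tcf12 (-0.53, adjusted p = 0.0452), while Acvr2b did not pass (-0.7, adjusted p = 0.0588), with the KA libraries shared by both comparisons. In input 3 of 38 rose against AAV control, namely Inhba (2.37), Acvr1c (1.19) and Tgfbr1 (0.94), against 3.54% of all genes, and 9 of 37 rose against PBS, against 15.5%.

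**Figure D5:**
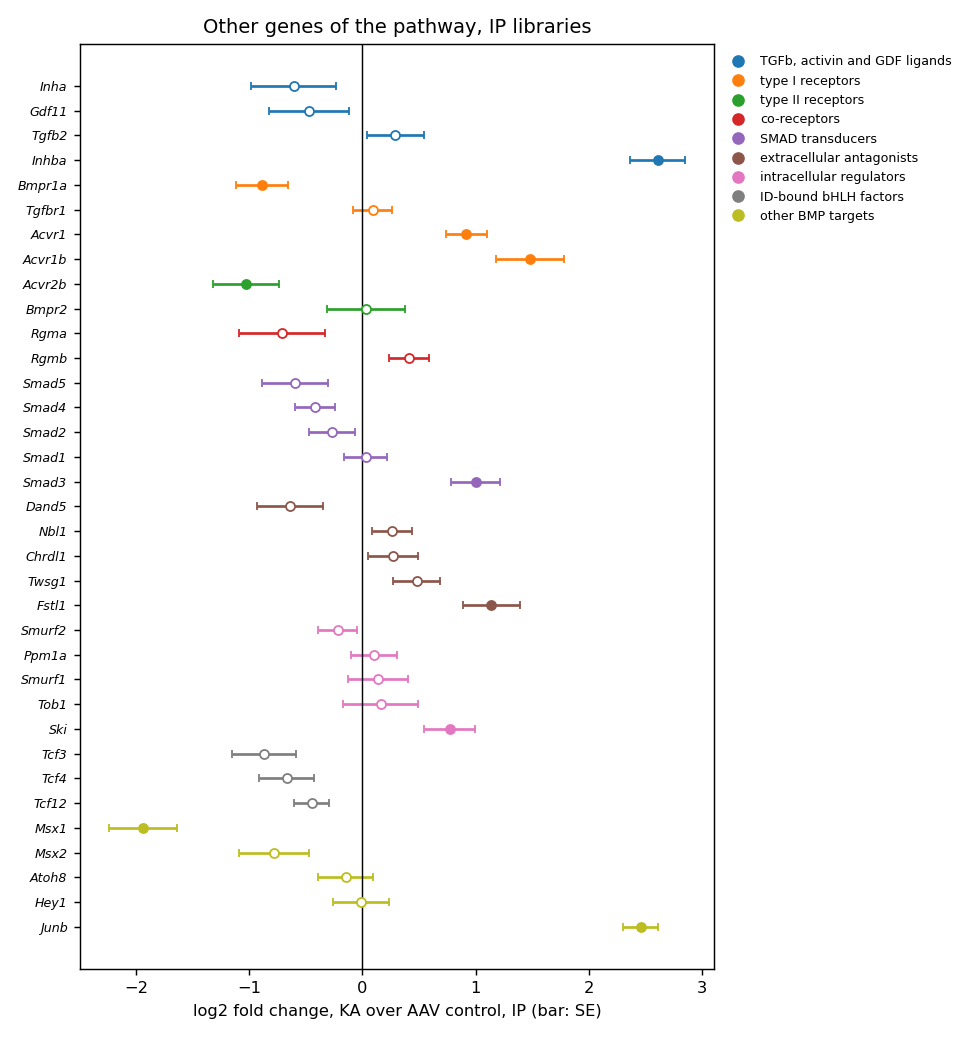
Log2 fold change of KA over AAV control in IP (horizontal axis, bars are SE) for the 35 other pathway genes tested, colored by role; filled markers passed at an adjusted p under 0.05. Inhba at 2.61 and Junb at 2.46 lie farthest to the right and Msx1 at -1.94 farthest to the left.

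Over the 18 libraries, the log2 CPM patterns closest to that of Bmp6, out of 13274 genes ranked, were those of Ccn1, a matricellular protein gene (Pearson r = 0.97), Cthrc1 (0.967), Vim, the vimentin gene (0.964), Aspg (0.964) and A2m, a protease inhibitor gene (0.963). The closest to Id3 were S100a16 (0.996), Sdc4, a syndecan gene (0.995), Ddah2 (0.993), 1810037I17Rik (0.992) and Rcn2 (0.992). These are descriptions over libraries that fall into 6 groups, with IP and input of a sample sharing a homogenate. The genes were picked on these same libraries, so their fold changes follow from the choice and are given as description: between KA and AAV control IP they ran from 1.1 (Cthrc1) to 4.5 (A2m) for the 5 near Bmp6 and from 0.05 (Ddah2) to 0.35 (Sdc4) for the 5 near Id3. The mean FPKM of Vim was 283.1 in KA IP, 27.9 in AAV control IP and 15.7 in PBS IP, and that of S100a16 was 1225.8, 1193.5 and 650.6.

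Cell type markers moved in the same IP comparison. Of the neuron markers 4 of 7 tested were higher in KA IP than in AAV control IP, of the oligodendrocyte markers 2 of 5 and of the microglia markers 2 of 3. Neuronal subtypes went both ways, with 2 of 3 tested granule cell markers higher and 2 of 3 tested pyramidal cell markers lower. Of all genes 10.4% rose and 9.74% fell. The endothelial sum was 4.35 to 5.88 FPKM in KA and 10.1 to 15.8 FPKM in AAV control. Of the 8 astrocyte markers 2 were higher and 3 lower, with a median of -0.33. Their part in the rise of Bmp6, Bambi and Smad7 and in the fall of Id4, Bmpr1b and Smad9 was not tested.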

How the data were processed

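IP and input RNA of 3 pooled samples a condition was sequenced on an Illumina NovaSeq instrument after NEBNext Ultra II library preparation. The submitters' processing notes name STAR, featureCounts, edgeR and mm10; versions, annotation release and strand setting are not given in the sources used here. The deposited values were raw counts per gene and the authors' FPKM, with 7991681 to 16032180 counts a library. Counts were fitted with edgeR 4.0.16 (R 4.3.3; TMM, glmQLFit, glmQLFTest) over genes whose FPKM exceeded 1 in each of the compared libraries; members below that were fitted after filterByExpr and tested by an exact permutation test on log2(FPKM + 1). The interaction term compared KA effects in IP and input. Same-numbered libraries come from 1 homogenate for IP against input (correlations of deviations 0.155 to 0.751). For KA against AAV control they are separate pools that share a run (0.348 to 0.551). Members, pathway and marker lists were chosen with earlier results of these data known. All 10 members were named, and of each pathway list up to 3 genes that passed in IP with the smallest p; the 5 patterns closest to Bmp6 and to Id3 were added. Alternatives were DESeq2 1.42.0, limma-voom (limma 3.58.1), RLE factors, other filters, the replicate block, the run covariate, run 1 alone, all 18 libraries in 1 fit and leaving out each library. Scripts were tested on simulated data. No pair of replicates differed by so little as sampling noise.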

Additional observations from a re-analysis of the deposited data

Results flagged for a closer look

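In the fit without a block, the effect of KA differed between IP and input libraries by the interaction test (edgeR's quasi-likelihood test) for Id2, Id4 and Bmpr1b. With the block, which joins IP and input of a homogenate, all 7 tested members passed against AAV control, with 35.8% of all genes. With filterByExpr and no block, Bambi was higher against PBS (1.68, adjusted p = 0.00209). The Id4 call against AAV control was lost in 10 of 12 fits with 1 library left out. Against the AAV control baseline the log2 fold change of Id4 was lower in IP by 2.02 (-2.02, SE 0.598, adjusted p = 0.0451) and that of Id2 by 1.1 (-1.1, SE 0.232, adjusted p = 0.00877), while 5.99% of all genes were lower. Id4 had a log2 fold change of -1.97 in IP and 0.07 in input, and Id2 of -0.37 in IP and 0.74 in input. Against the PBS baseline, which shares the KA libraries, the differences were -1.86 for Id4 (SE 0.359, adjusted p = 0.00266), -1.29 for Bmpr1b (SE 0.363, adjusted p = 0.0193) and -1.14 for Id2 (SE 0.324, adjusted p = 0.0201), while 14.7% of all genes were lower. The IP to input ratio of Id4 was 1.61 to 1.85 in the 3 KA samples and 5.43 to 7.61 in the 6 control samples. In the same test 6 of the 8 astrocyte markers were lower with the AAV control baseline (median -1.32) and 5 of 8 with the PBS baseline (median -1.25). Oligodendrocyte markers went the other way, with 2 of 5 higher (median 1.79) and 5 of 5 higher (median 1.96). So did neuron markers, with 5 of 7 and 4 of 7 higher. Neuron markers summed to 227.9 to 308.6 FPKM in KA IP and 100.9 to 149.3 FPKM in AAV control IP, and astrocyte markers to 956.4 to 1018 FPKM in KA input and 369 to 378.4 FPKM in AAV control input. Their part in these differences was not tested.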

How the results depend on the processing

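The 52 called values of single members kept their direction under every setting run; with a library left out 273 of 348 values also kept the call and 75 lost it, and under other settings 359 of 373 kept it and 14 lost it. Limits are the 3 samples a group, the 5 to 52 counts of Smad6 and the distance of AAV control samples 3 from the others.

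With a library left out, the number of members passing ran from 2 to 6 for KA against AAV control IP (8.59% to 33.8% of all genes), from 3 to 5 for KA against PBS IP (25% to 36.7%), from 0 to 4 for PBS against AAV control IP (0% to 10.2%), from 1 to 2 for KA against AAV control input (1.23% to 23.8%), from 0 to 5 for PBS against AAV control input (0% to 36.5%), and from 1 to 6 (8.57% to 17.8%) and 1 to 5 (17.4% to 27.6%) for the interaction with the AAV control and PBS baselines. Without the FPKM filter it was 4 for KA against AAV control input (5.65% of all genes), 2 for PBS against AAV control input (0.756%), and 8 for IP against input in AAV control (20.1%) and in PBS (23.7%), where filterByExpr also gave 8 (37% and 52.2%). With all 18 libraries in 1 fit it was 1 for KA against AAV control input (5.48%) and 3 for KA against PBS input (9.43%). For the interaction with the AAV control baseline it was 2, and became 1 with filterByExpr (8.28%) or limma-voom (12.8%), 5 with DESeq2 (17.9%), 7 with the sequencing run as covariate (29.1%) and 6 in run 1 alone (34.4%). The cause was not tested.

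With the replicate block, which here joins IP and input of a homogenate, that interaction gave 7 members (35.8% of all genes). Smad6 reached -1.55 (adjusted p = 0.0476) there with filterByExpr. Other calls the block changed stand beside their results. KA against PBS and PBS against AAV control share numbers without pairing, and there the block changed no call of a member.

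The IP to input ratio from TMM-scaled CPM in place of FPKM was 2.45 for Bmp6, 2.44 for Bmpr1b, 1.42 for Smad7, 4 for Id1, 3 for Id2, 8.68 for Id3 and 2.18 for Id4 in KA, and 8.15 for Id4 in AAV control.

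Values that were not called changed sign near 0. For PBS against AAV control IP, Bmp6 was 0 with RLE factors and with DESeq2, -0.1 without the filter and -0.07 with filterByExpr, and Id2 was 0.01 with all 18 libraries. With a library left out, the ranges were -0.12 to 0.19 for Bmp6 and -0.31 to 0.22 for Id2 there, -0.42 to 0.13 for Smad6 in KA against AAV control IP and -0.08 to 0.24 for Id1 in KA against PBS IP. In KA against AAV control input they were -0.04 to 0.2 for Bambi, -0.23 to 0.31 for Id4, -0.09 to 0.27 for Bmpr1b and -0.03 to 0.33 for Id1, and in PBS against AAV control input -0.06 to 0.14 for Id2. For the interaction they were -0.06 to 0.27 for Bmp6 with the AAV control baseline, and -0.5 to 0.06 for Bmp6 and -0.07 to 0.36 for Smad9 with the PBS baseline.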
